A study of Mus musculus with 7 samples.

Results

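The miR-199 and miR-214 microRNAs (miRNAs) were examined in small RNA libraries of extracellular vesicles (lipid-enclosed particles shed by cells) that had been prepared from the fat of male C57BL/6J mice. The members were chosen by name (mmu-miR-199a-3p, mmu-miR-199a-5p, mmu-miR-199b-3p, mmu-miR-199b-5p, mmu-miR-214-3p and mmu-miR-214-5p, written below without the mouse prefix), and 5 of these 6 names were rows of the 1084-row count table. miR-199b-3p was not analysed as a row of its own. Vesicles came from mice on chow (4 libraries, Chow 1 to Chow 4) or on a high-fat diet (HFD, 3 libraries, HFD 1 to HFD 3), with a diet period of 12 weeks per the labels. The labels name no fat depot and do not say whether a library came from 1 animal or from a pool, so every p-value here refers to variation among libraries, part of which may be technical.

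A miRNA is cut from a hairpin precursor that can release a mature strand from each arm, called 5p and 3p, and bases 2 to 8 of the mature strand, the seed, are the main determinant of which messenger RNAs it pairs with. miR-199a and miR-214 are best known from mesenchymal cells: they are transcribed together in the long noncoding RNA Dnm3os, under control of the transcription factor Twist1, and have been studied in skeletal development, heart muscle and tissue fibrosis. They are typical of fibroblasts and related stromal cells. The cell of origin of the vesicles was not tested here.

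The mature sequences show which reads can be told apart, and they are given with the seed in capitals. Sequences and positions are from RefSeq (GRCm38.p6), where 5 of the 6 names (all except miR-199b-5p) were matched.
miR-199a-3p: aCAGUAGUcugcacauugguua
miR-199b-3p: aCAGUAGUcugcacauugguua
miR-199a-5p: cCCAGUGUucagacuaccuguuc
miR-214-3p: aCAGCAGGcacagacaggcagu
miR-214-5p: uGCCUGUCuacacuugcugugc

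miR-199a-3p and miR-199b-3p are the same molecule by sequence, so the counts in the miR-199a-3p row can come from either gene. The 5 sequences hold 4 distinct seeds. In RefSeq, miR-761 alone among the other mouse miRNAs had one of these seeds, that of miR-214-3p, and it was not analysed here. As background, the 5p strands of miR-199a and miR-199b are near-identical, so the split between these rows depends on how the authors' counting treated mismatches, for which no source used here gives the setting.

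The members come from 4 hairpins at 3 loci. The Mir199a-2 hairpin lies at chr1:162217814-162217923 and the Mir214 hairpin at chr1:162223368-162223477, both on the plus strand and 5444 bases apart. Both lie in an exon of Dnm3os and, on the opposite strand, in an intron of Dnm3 (GENCODE M21). The Mir199a-1 hairpin lies at chr9:21496495-21496564 on the minus strand, opposite an intron of Dnm2, and the Mir199b hairpin at chr2:32318460-32318569 on the plus strand, opposite an intron of Dnm1. Mature miR-199a from chromosomes 1 and 9 is identical, so no miR-199a level here can be assigned to 1 of these loci. The hairpins of the Dnm3os pair are shown because the results compare their arms, which are in capitals.
Mir199a-2: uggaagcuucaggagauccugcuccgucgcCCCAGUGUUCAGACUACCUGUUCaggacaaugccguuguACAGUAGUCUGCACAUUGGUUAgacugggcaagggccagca
Mir214: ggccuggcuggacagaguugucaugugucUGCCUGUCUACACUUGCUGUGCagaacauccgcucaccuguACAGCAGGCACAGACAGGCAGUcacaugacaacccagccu

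Library totals ranged from 48840 counts in Chow 3 and 180694 in Chow 2 to 5941955 in HFD 3, and the remaining libraries held between 1825488 and 2294878. The detection floor, taken as 3 counts for a miRNA with none, was 61.4 CPM (counts relative to the library total) in Chow 3 and 16.6 CPM in Chow 2. The summed shares of some marker lists did not overlap between the diets: 10 leukocyte miRNAs held 2.08% to 4.26% of the counts in Chow and 12.4% to 15.0% in HFD, and 7 adipocyte-enriched miRNAs held 43.6% to 62.9% in Chow and 23.4% to 30.6% in HFD. The 16 stromal and smooth muscle miRNAs, which exclude the members, held 12.0% to 21.4% in Chow and 15.1% to 18.7% in HFD. The fibrosis-linked list, with 19 miRNAs, held 7.26% to 9.09% in Chow and 17.9% to 20.1% in HFD, also without overlap. The leukocyte and fibrosis-linked lists share miR-21a-5p, miR-146a-5p and miR-155-5p, so their shares are not independent. In CPM scaled by the TMM library size, miR-21a-5p averaged 31964 in Chow and 107307 in HFD. On the same scale miR-148a-3p, of the adipocyte-enriched list, averaged 558623 and 212924. Single abundant miRNAs therefore weigh heavily in these sums. The erythroid list held 0.180% to 0.391% in Chow and 0.0826% to 0.272% in HFD, the endothelial list 0.334% to 0.885% and 0.557% to 0.665%, and the epithelial list 1.54% to 2.39% and 1.76% to 1.93%. No marker of these lists was at 0 in all libraries, and the part of other cell types in the members' levels was not tested.

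Together the 5 rows made up under 1% of the vesicle miRNA counts on both diets. They held 0.412%, 0.350%, 0.416% and 0.205% of the counts in Chow 1 to Chow 4 and 0.511%, 0.350% and 0.328% in HFD 1 to HFD 3. The ranges overlapped, with the lowest share in Chow 4 and the highest in HFD 1. Exact binomial (Clopper-Pearson) 95% intervals, which cover counting error only, ran from 0.361% to 0.477% in the shallow Chow 3 library and from 0.324% to 0.333% in HFD 3. miR-148a-3p, the most abundant miRNA, had a lower level in HFD (log2 fold change -1.39, edgeR adjusted p = 0.0328), so the shares were also computed on the counts without it. Its call was lost without Chow 3, Chow 4, HFD 1, HFD 2 or HFD 3 (edgeR adjusted p up to 0.205), and without Chow 2 and Chow 3 together. Its log2 fold change stayed between -1.55 and -1.16 when single libraries were left out. The shares of the 5 rows were then 0.963%, 0.622%, 0.989% and 0.339% in Chow and 0.695%, 0.460% and 0.416% in HFD, and still overlapped. The order of the group means reversed. Over all counts the mean was 0.346% in Chow and 0.397% in HFD, and without miR-148a-3p it was 0.728% and 0.523%.

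No miR-199 or miR-214 row passed the test between the diets. In edgeR's quasi-likelihood test over 385 miRNAs, 0 of the 5 members had an adjusted p below 0.05, where 2.86% of all tested miRNAs did (2.08% higher and 0.779% lower in HFD), and 0 had an unadjusted p below 0.05, where 24.2% did. Limma-voom and DESeq2 also called none. The libraries of the diets overlapped for all 5 members, and 22.3% of all tested miRNAs had groups that did not overlap. With only 5 members, counts of 0 are not set apart from these shares. The median log2 fold change was 0.04 over the members and -0.02 over all tested miRNAs. In bulk vesicles, fewer vesicles from a cell type and less of a miRNA per vesicle cannot be told apart.

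miR-199a-3p was the leading member and ranked between 22 and 51 by abundance in the 7 libraries. It stood at 3171, 2435, 3811 and 1539 normalised CPM (counts scaled by the TMM library size) in Chow 1 to Chow 4 and at 3958, 2173 and 2299 in HFD 1 to HFD 3. HFD 2 and HFD 3 lay within the Chow range, and HFD 1 was just above its highest library. Chow averaged 2739 ± 978 (SD, n = 4) and HFD 2809.7 ± 996 (SD, n = 3). The fitted log2 fold change was 0.04, with a 95% interval from -0.86 to 0.95 (SE 0.42, edgeR adjusted p = 0.971). Changes from 1.82-fold lower to 1.93-fold higher therefore lay within the interval. Its fold change was at percentile 52.2 of all tested miRNAs.

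The other arm, miR-199a-5p, was less abundant than its partner in every library. It stood at 946, 343, 441 and 365.3 normalised CPM in Chow 1 to Chow 4 and at 367, 456 and 468 in HFD 1 to HFD 3. Chow 1 was above all other libraries, which lay close together whatever the diet. The diet log2 fold change was -0.29 (SE 0.46, 95% interval -1.31 to 0.72, edgeR adjusted p = 0.775) and 0.19 without Chow 1.

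miR-199b-5p, from the Dnm1 locus, had the widest spread of the members among Chow libraries relative to its mean. It stood at 1575, 56.4, 154 and 259 normalised CPM in Chow 1 to Chow 4, on 2373, 12, 7 and 544 counts, and at 211.6, 249 and 134 in HFD 1 to HFD 3. Chow 1 was far above the other 6 libraries, and Chow 2 was the lowest. Chow averaged 511.2 ± 714 (SD, n = 4) and HFD 198 ± 58.6 (SD, n = 3). The log2 fold change of -1.41 (SE 0.88, 95% interval -3.34 to 0.51, edgeR adjusted p = 0.347) rested on Chow 1 and was 0.32 without it. Without Chow 2 and Chow 3, where Chow 1 is 1 of the 2 remaining Chow libraries, it was -2.22 (edgeR adjusted p = 0.124).

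Both strands of miR-214 were scarce. miR-214-3p, the strand studied in fibrosis and bone, stood at 79.0, 113, 22.03 and 47.2 normalised CPM in Chow 1 to Chow 4 and at 121, 68.5 and 84.4 in HFD 1 to HFD 3. The Chow 3 value was 1 count, for which the exact binomial 95% interval of the share ran from 0.518 to 114 CPM, so it spanned the levels of several other libraries. The diet log2 fold change was 0.40 (SE 0.54, 95% interval -0.77 to 1.57, edgeR adjusted p = 0.723) and 0.23 without Chow 3.

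miR-214-5p stood at 29.2, 23.5, 44.1 and 28.6 normalised CPM in Chow and at 43.9, 30.7 and 33.1 in HFD. The Chow 2 and Chow 3 values were 5 and 2 counts, and the deeper libraries of both diets lay between 28.6 and 43.9. The diet log2 fold change was 0.30 (SE 0.48, 95% interval -0.74 to 1.34, edgeR adjusted p = 0.775).

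**Figure D1:**
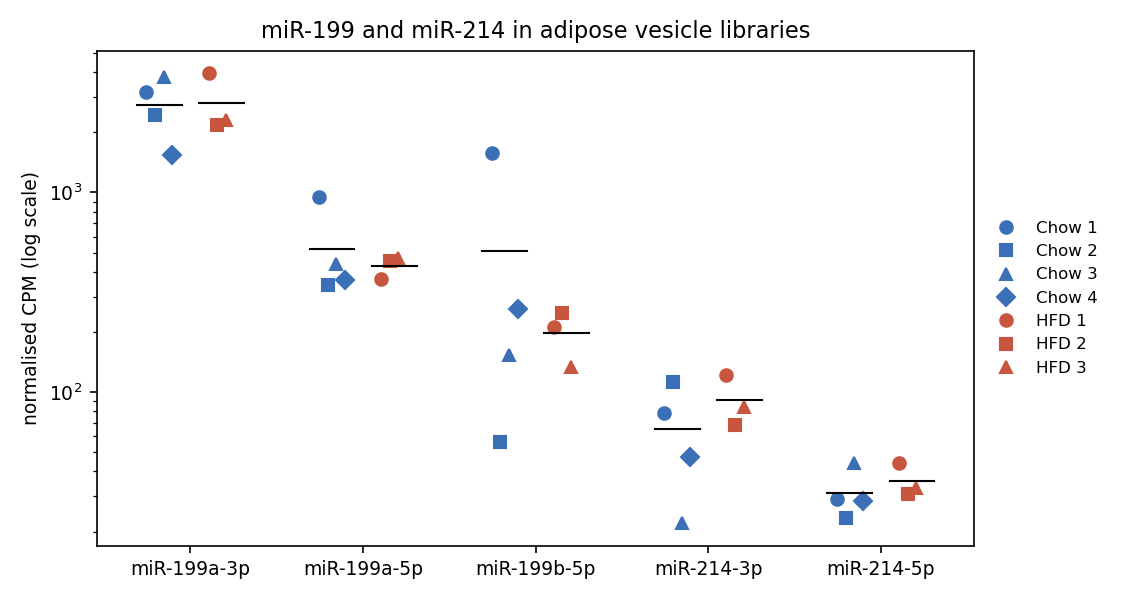
Normalised CPM (log axis) of the 5 members in each Chow and HFD library, with 1 point per library and a line at the group mean. The diets overlap for every member, and Chow 1 stands at 1575 for miR-199b-5p and 946 for miR-199a-5p, above the other libraries.

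**Figure D2:**
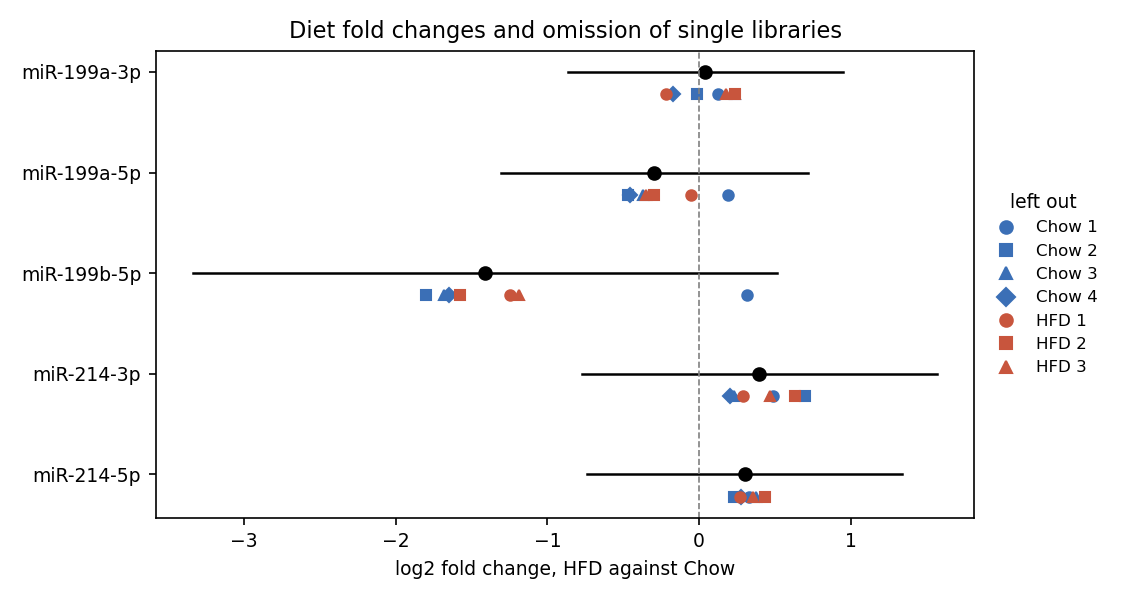
The log2 fold change of each member, HFD against Chow, as a black point with its edgeR 95% interval (line), and the value with a single library left out (coloured points, named for the library left out). Every interval includes 0, and miR-199b-5p moves from -1.41 to 0.32 without Chow 1.

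The order of the members by level was clear at the top and unclear between neighbours lower down. Per the file headers, the counts are of reads. The mature strands printed above have 22 or 23 bases, so levels were compared without a length correction. Within the 5 rows, miR-199a-3p took 54.7% of the counts in Chow 1 and between 68.7% and 85.2% in the other 6 libraries. miR-199a-5p was above miR-199b-5p in 6 of 7 libraries and below it in Chow 1. In HFD the levels of these 5p strands did not overlap (430 ± 55.4 and 198 ± 58.6 normalised CPM, SD, n = 3), whereas in Chow they did. miR-214-3p was above miR-214-5p in 6 of 7 libraries and below it in Chow 3, where both rested on 1 or 2 counts.

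**Figure D3:**
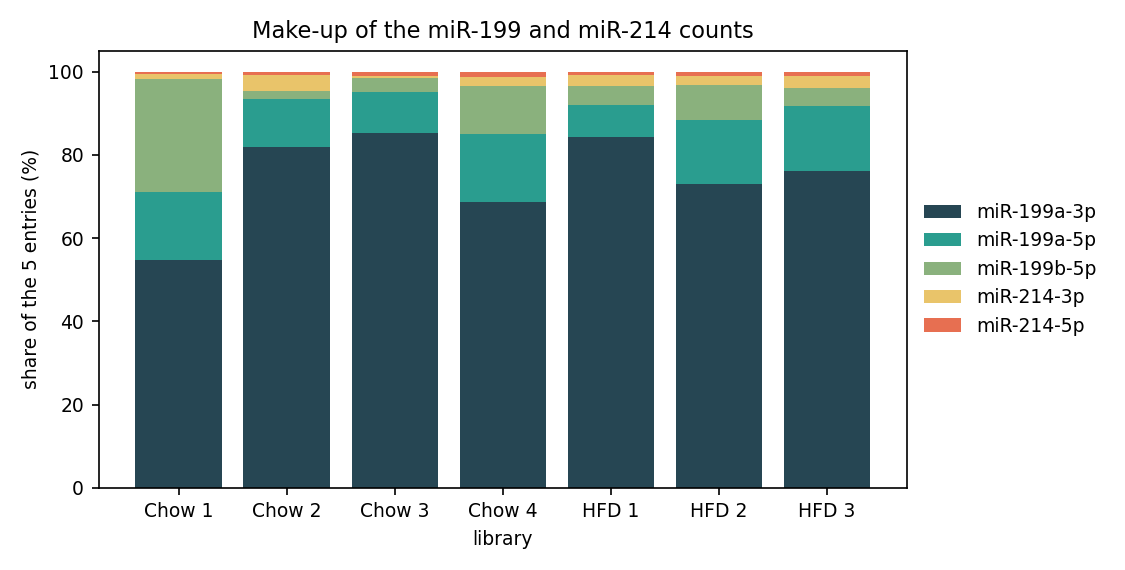
Share (%) of each of the 5 rows in their summed counts, stacked for each library. miR-199a-3p is the largest part everywhere, from 54.7% in Chow 1 to 85.2% in Chow 3, and miR-199b-5p makes up 27.2% in Chow 1 and at most 11.6% elsewhere.

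Ratios of counts within a library do not depend on the scaling between libraries, and 7 were compared between the diets, with 0.5 counts added to each side, by a two-sided exact permutation test that used all 35 assignments. The p-values were adjusted over the 7 by the Benjamini-Hochberg method. None passed the adjusted threshold. The ratio of miR-199a-3p to miR-199a-5p was 3.35, 7.05, 8.46 and 4.21 in Chow 1 to Chow 4 and 10.8, 4.76 and 4.91 in HFD 1 to HFD 3. The 3p strand led in every library, and the diets overlapped (log2 difference 0.23, exact permutation p = 0.686, adjusted p = 0.8).

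Because the 3p count can hold strands of both genes, it was also set against the sum of the 5p counts of miR-199a and miR-199b, as a description. This ratio was 1.26, 6.09, 6.41 and 2.46 in Chow 1 to Chow 4 and 6.84, 3.08 and 3.82 in HFD 1 to HFD 3. Chow 1 was the lowest and HFD 1 the highest. miR-199b-5p made up 62.5%, 14.1%, 25.9% and 41.5% of these 5p counts in Chow and 36.6%, 35.3% and 22.2% in HFD. The ratio of miR-199b-5p to miR-199a-5p had a log2 difference of -0.22 between the diets (exact permutation p = 0.8286, adjusted p = 0.8286). When Chow 2 and Chow 3 were both left out it was -1.28, with the diets not overlapping (exact permutation p = 0.1, the smallest that this number of libraries allows, adjusted p = 0.233), and without Chow 1 it was 0.34.

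For miR-214, the ratio of the 5p to the 3p strand was 0.372, 0.224, 1.67 and 0.608 in Chow 1 to Chow 4 and 0.363, 0.451 and 0.392 in HFD 1 to HFD 3. The highest value, in Chow 3, came from 2 and 1 counts. The log2 difference was -0.43 (exact permutation p = 0.686, adjusted p = 0.8) and 0.11 without Chow 3.

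The miR-199a-3p row, which can hold strands of all 3 miR-199 hairpins, was then set against miR-214-3p. The ratio of miR-199a-3p to miR-214-3p was 39.99 in Chow 1, 32.4 in Chow 4 and 32.5, 31.6 and 27.2 in HFD 1 to HFD 3. It was 21.2 in Chow 2, on 24 counts of miR-214-3p, and 116 in Chow 3, on 1 count. The log2 difference between the diets was -0.48 (exact permutation p = 0.657, adjusted p = 0.8) and 0.01 without Chow 3. Across the 5 deep libraries, log2 normalised CPM of miR-199a-3p and miR-214-3p had a Pearson correlation of 0.92, and across all 7 libraries one of -0.02. Over the same 5 libraries miR-199a-5p had a correlation of 0.06 with miR-214-3p and of 0.32 with its own partner arm miR-199a-3p. miR-199a-5p and miR-199b-5p had a correlation of 0.87 over the 5 libraries and 0.86 over all 7. Both were highest in Chow 1, at 946 and 1575 normalised CPM, and these values lean on that library. Among the other deep libraries, HFD 3 had the highest miR-199a-5p (468) and the lowest miR-199b-5p (134). Chow 4 had the reverse (365.3 and 259). The correlation without Chow 1 was not computed. These correlations are descriptions over few libraries that share depth and scaling. The ratio of the other arm, miR-199a-5p, to miR-214-3p was 11.9 in Chow 1, 7.70 in Chow 4 and 3.02, 6.64 and 5.54 in HFD 1 to HFD 3 (over all libraries, log2 difference -0.71, exact permutation p = 0.314, adjusted p = 0.733).

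The members were then set against miR-143-3p, another miRNA of stroma and smooth muscle, which was lower in HFD. miR-143-3p stood at 9871, 19296, 19738 and 11118 normalised CPM in Chow 1 to Chow 4 and at 1776, 2204 and 3554 in HFD 1 to HFD 3. The groups did not overlap, and the fitted log2 fold change was -2.58 (edgeR adjusted p = 0.0224, SE 0.43). The call was lost without HFD 2 (log2 fold change -2.43, edgeR adjusted p = 0.160), and also when Chow 2 and Chow 3 were both left out (-2.07, adjusted p = 0.0628). Its other arm, miR-143-5p, had -0.90 (edgeR adjusted p = 0.336), with overlapping groups. The stromal and smooth muscle list had a median of -0.19, so miR-143-3p does not stand for the whole list. The ratio of miR-199a-3p to miR-143-3p was 0.321, 0.126, 0.194 and 0.138 in Chow 1 to Chow 4 and 2.23, 0.986 and 0.647 in HFD 1 to HFD 3. All 3 HFD ratios were above all 4 Chow ratios. The log2 difference was 2.63, or 6.19-fold (exact permutation p = 0.0286, the smallest that 35 assignments allow, adjusted p = 0.1), and stayed between 2.14 and 3.03 when single libraries were left out and at 2.41 without Chow 2 and Chow 3. The ratio of miR-214-3p to miR-143-3p likewise did not overlap, with a log2 difference of 3.11 (exact permutation p = 0.0286, adjusted p = 0.1). Neither ratio passed after adjustment, and both share the fall of miR-143-3p, so they are not separate results. In edgeR miR-143-3p had the smallest p of all tested miRNAs. Its log2 fold change was -2.58, against 0.04 for miR-199a-3p and 0.40 for miR-214-3p. The separation of the diets in both ratios thus mostly restates the fall of miR-143-3p. These ratio tests therefore cannot decide whether the members changed.

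**Figure D4:**
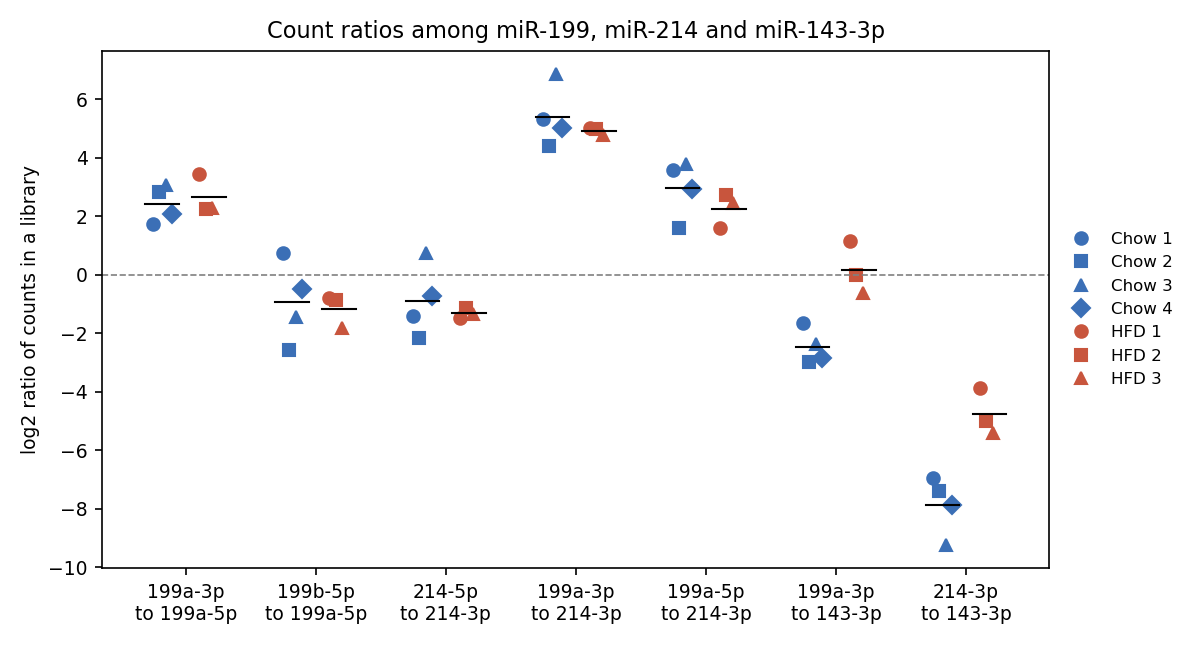
Log2 ratio of counts within each library for 7 pairs, with 1 point per library and a line at the mean of each diet. The first 5 pairs overlap between the diets, whereas both ratios to miR-143-3p are higher in all 3 HFD libraries than in all 4 Chow libraries.

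Of the 16 stromal and smooth muscle miRNAs, 1 fell (miR-143-3p) and none rose, where 0.779% of all tested miRNAs fell and 2.08% rose. The list's median log2 fold change was -0.19, against -0.02 over all tested miRNAs. Scaled to library size only it was 0.06, against 0.31, with 1 miRNA higher and 1 lower. Next in order of p, miR-708-5p had -1.96 (edgeR adjusted p = 0.0642) and miR-140-5p, a miRNA of cartilage and mesenchyme, had 1.82 (edgeR adjusted p = 0.0944), and neither passed. miR-140-5p averaged only 18.6 normalised CPM in Chow, where the floor of Chow 3 was 61.4 CPM. Its more abundant other arm, miR-140-3p, had -0.06 (edgeR adjusted p = 0.963). Of 17 tested miRNAs linked to fibrosis, 1 rose, miR-21a-5p (log2 fold change 1.75, SE 0.38, edgeR adjusted p = 0.0328), and none fell, with a median of 0.45. Its call was lost without Chow 2, Chow 3, Chow 4, HFD 2 or HFD 3 (log2 fold changes 1.57, 1.55, 1.82, 1.79 and 1.71). In this list miR-146a-5p, a miRNA induced in inflammation, had 1.26 (edgeR adjusted p = 0.0642), which did not pass. These lists overlap with miRNAs of other cell types, miR-21a-5p among them. Without Chow 2 and Chow 3 together, 0 of 403 miRNAs in the whole table were called in edgeR (95 at an unadjusted p below 0.05), so neither list had one. The median was then -0.59 in the stromal list and 0.05 in the fibrosis list, and -0.13 over all tested miRNAs. With library size only, the fibrosis median was 0.89 and that of all tested miRNAs 0.31. Both list medians thus moved with the libraries and the scaling, as did the median of all tested miRNAs. In each setting given, the stromal median was below that of all tested miRNAs and the fibrosis median above it.

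The 5 other tested miRNAs whose log2 normalised CPM was most like that of miR-199a-3p over the 7 libraries were miR-1839-3p (Pearson r = 0.79), miR-1839-5p (0.76), miR-547-3p (0.67), miR-382-5p (0.66) and miR-669c-5p (0.64). For miR-214-3p they were miR-574-5p (0.93), miR-532-3p (0.93), miR-1983 (0.92), miR-15a-5p (0.92) and miR-132-3p (0.92). Over the 5 deep libraries this set had values between 0.60 and 0.85, and the miR-199a-3p set between 0.62 and 0.89. The miR-214-3p set averaged between 6.59 and 57.7 normalised CPM, below the Chow 3 floor of 61.4 CPM. miR-1839-3p (15.2) and miR-547-3p (15.0) were below it too. miR-214-3p itself had 1 count in Chow 3. How far the values over the 7 libraries lean on Chow 3 was not tested. They are the highest among all tested miRNAs outside the members and are given as a description.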

How the data were processed

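The authors deposited unnormalised counts of reads for each mature miRNA, per the file headers. Trizol RNA went to a sequencing company for Illumina small RNA libraries, per the labels' protocols. The submitters' processing notes name Bowtie without a version. How reads were counted, and on which genome build and miRNA annotation, is not given in the sources used here. All values come from the combined table, which differs from the separate tables in no value except 485 rows, none of them members, that are blank for Chow 2 and Chow 3 and held as 0.

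Counts were tested in R 4.3.3 with edgeR 4.0.16 (TMM scaling, filterByExpr, quasi-likelihood F test, diet as the only term, Benjamini-Hochberg adjustment over all 385 tested miRNAs, threshold 0.05). SEs and 95% intervals come from the F statistic. Ratios were tested with SciPy 1.17.1. Correlations used log2 CPM with a prior count of 2. The edgeR script was tested on simulated data. Alternatives were other scalings and filters, DESeq2 1.42.0, limma-voom (limma 3.58.1), omission of libraries, replicate number as a block, and identical rows counted once. Ratios were also computed with 1 count added and for libraries with at least 10 counts on both sides.

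The named miRNAs are the members, miRNAs with a member's seed, the 5 most correlated with miR-199a-3p and with miR-214-3p, the 3 lowest p-values in a list, and miR-143-3p. The text names a subset. The omissions for miR-143-3p, miR-21a-5p and miR-148a-3p and the levels without TMM scaling were added after seeing the data. Members and lists were chosen with earlier results of these data known.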

Additional observations from a re-analysis of the deposited data

Results flagged for a closer look

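Over 12 quantities checked in the 4 Chow libraries (5 levels and 7 ratios), 2 had a library far from the other 3. Chance flags about 1 in 20 if the values are normally distributed. The check used unlogged values and was not run on the log2 scale. Both flags were 5p strands of miR-199 in Chow 1. miR-199b-5p stood at 1574.9 normalised CPM, against 56.4 to 259 in the other Chow libraries. miR-199a-5p stood at 946 normalised CPM, against 343 to 441. The log2 levels of these rows had a correlation of 0.86 over the 7 libraries, so the flags are not separate. In CPM without the TMM scaling, whose factor was 0.711 for Chow 1, miR-199b-5p stood at 1119 in Chow 1 and at 66.4, 143.3 and 237 in Chow 2 to Chow 4, and it remained set apart. miR-199a-5p stood at 673, 404, 409.5 and 334 in Chow 1 to Chow 4, a gap of 0.777 of the range, which does not reach the critical value, so it was set apart only with the TMM scaling. The 3p strand, miR-199a-3p, was not set apart in Chow 1.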

How the results depend on the processing

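The number of miRNAs called over the whole table depended on the settings. Against 11 in the main test, there were 18 with RLE size factors, 39 with library size only, 62 with no filter, 47 in DESeq2, 19 in limma-voom with sample weights, 0 without Chow 2 and Chow 3 together (95 at an unadjusted p below 0.05 in edgeR), 23 with a replicate block, and 0 to 32 when single libraries were left out. None of these settings called a member. Library size scaling moved the median of all log2 fold changes from -0.02 to 0.31.

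Of 95 member fold changes under alternatives, 87 kept their direction and 8 reversed, and 71 of 77 ratio differences kept theirs. Direction here is the sign of the fold change. miR-199a-5p turned from -0.29 to 0.073 with library size only and to 0.028 with no filter. The median of all tested miRNAs was -0.02 in the main test, 0.31 with library size only and 0.56 with no filter. miR-199a-5p was below that median in each of these settings. miR-199a-3p turned from 0.04 to -0.19 with the replicate block. When single libraries were left out, miR-199a-3p ranged from -0.22 to 0.24 (negative without Chow 2, at -0.02, Chow 4, at -0.17, or HFD 1), miR-199a-5p from -0.47 to 0.19, and miR-199b-5p from -1.80 to 0.32, with the highest value of both without Chow 1. miR-214-3p ranged from 0.21 to 0.70 and miR-214-5p from 0.23 to 0.43. Among the log2 ratio differences, miR-199a-3p to miR-199a-5p ranged from -0.16 to 0.45, miR-199b-5p to miR-199a-5p from -0.75 to 0.34 (0.11 without HFD 3; -1.28 without Chow 2 and Chow 3 together), miR-214-5p to miR-214-3p from -0.85 to 0.11, and miR-199a-3p to miR-214-3p from -0.81 to 0.0093, the last value also with only libraries of at least 10 counts. Without Chow 2 and Chow 3, 0 miRNAs were called in the stromal, fibrosis, leukocyte, endothelial and adipocyte lists (main counts 1, 1, 5, 1 and 1), and with library size only there were 2 in the stromal list (1 higher, 1 lower) and 4 in the fibrosis list (all higher). The cause of these moves was not tested.

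Same-numbered libraries share only a number in the labels. Their deviations from the diet means had correlations of 0.0672, -0.164 and 0.0354, and not every library correlated best with its own number, so the replicate block is not a paired design. Counts of 1 to 24 for miR-214 in Chow 2 and Chow 3 limit what can be said of it.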
